A study of Mus musculus with 6 samples.

Results

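The imprinted genes described here are 10 genes that, as background, are each expressed mainly from the copy inherited from one parent: H19, Igf2, Igf2r, Dlk1, Peg3, Grb10, Ndn, Plagl1, Mest and Nnat. They were chosen by name, and all 10 were found among the 29267 Ensembl gene identifiers of the deposited tables. RNA sequencing measured them in neural stem cells of the mouse strain OG2, a background in which a fluorescent reporter is driven by regulatory DNA of Pou5f1. The 6 libraries comprised differentiated cells (labelled D2) with naloxone, with DAMGO or without either ligand (control), and undifferentiated neural stem cells (NSC) with naloxone, with DAMGO or without either (control). Naloxone blocks opioid receptors and DAMGO is a peptide that activates the mu opioid receptor. All libraries came from passage 8, each group held 1 library, and whether they derive from separate cultures is not stated. The series asks what naloxone does to the proliferation and differentiation of these cells.

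Imprinted genes carry DNA methylation marks that are set differently in the egg and the sperm and are kept in the cells of the body, so that most of them are transcribed from a single parental copy. Many of them control the growth of the embryo and placenta, and several are abundant in the brain, where Igf2 and Dlk1 are known to be transcribed from both copies in particular cells. The tables give the RNA of a gene summed over both copies, so which copy was transcribed was not measured.

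Libraries held 8417074 to 13561237 expected counts, and 17169 to 17881 genes had a count. The neural stem cell marker Nes had 404.5 ± 8.68 CPM (counts scaled to a fixed library total) in the D2 libraries and 1837 ± 16.5 CPM in the NSC libraries, and the neuronal marker Tubb3 averaged 104 CPM in D2 and 11.9 CPM in NSC (n = 3 libraries per state). Of the 10 neural stem cell markers listed, 8 rose and 2 fell (Nes and Vim), and of 7 tested neuron markers 4 rose, 2 fell and 1 did not pass. All 8 astrocyte markers rose. Oligodendrocyte lineage markers rose for 6 of 7 tested genes, and 1, Cspg4, fell. Gpr17 of that list averaged 765 CPM in D2 and 3.71 CPM in NSC, and Cspg4 averaged 89.95 CPM in D2 and 131.1 CPM in NSC. The astrocyte marker Gfap averaged 9.69 CPM in D2 and 0.179 CPM in NSC, and the proliferation marker Mki67 averaged 31.1 CPM in D2 and 1518 CPM in NSC. In bulk RNA, fewer cells of a type and less RNA per cell cannot be told apart. The cells were compared between states over the 3 ligand conditions, and each ligand was compared with the control over both states, in a single additive edgeR quasi-likelihood model whose p-values were adjusted over all 13216 tested genes. The spread behind those p-values is what remains between the 6 libraries after state and ligand, with 2 residual degrees of freedom. It is combined with a spread estimated over all genes, which counts for 9.45 degrees of freedom. This spread may be technical. Below, ± is the SD over the 3 libraries of a state, which differ in ligand, and CPM values are normalised between libraries.

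The imprinted genes went in both directions with state. Of the 9 members with enough counts to test, 4 rose in D2 relative to NSC (Nnat, H19, Igf2 and Ndn), 4 fell (Mest, Peg3, Igf2r and Plagl1), and Grb10 did not pass the threshold of an adjusted p of 0.05. Dlk1 averaged fewer than 10 counts per library and was not tested. Among all tested genes 40.0% rose and 39.8% fell, so a share of 8 called out of 9 stands beside a background of 79.8% called in either direction. The median log2 fold change of the 9 members was -0.18, beside 0.00 over all tested genes. The D2 libraries were all above the NSC libraries for Nnat and Ndn and all below them for Mest, Peg3, Igf2r and Plagl1 in CPM, an absence of overlap that 41.3% of tested genes had in the higher direction and 40.9% in the lower. For H19, Igf2, Dlk1 and Grb10 the libraries of both states overlapped.

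**Figure D1:**
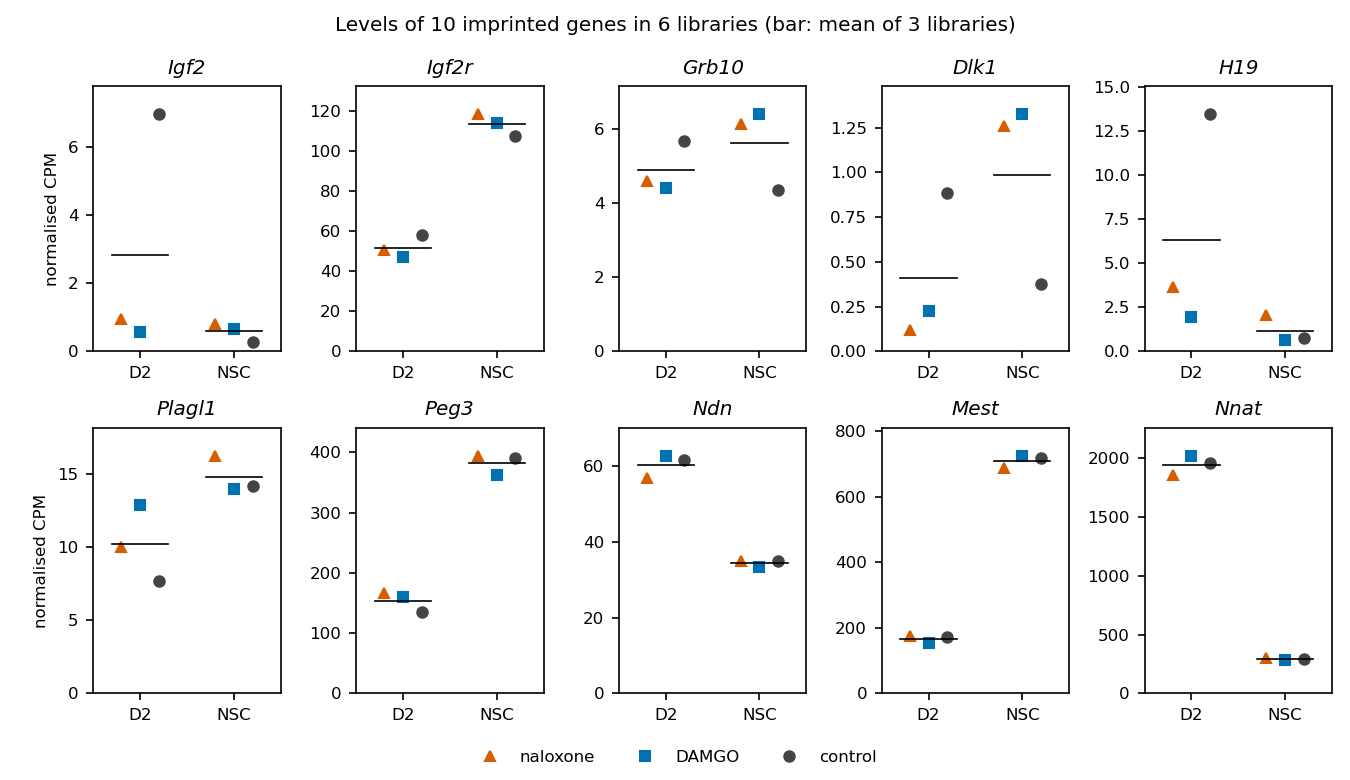
Normalised CPM of the 10 imprinted genes in each library, with D2 to the left of NSC in every panel, a marker shape for each ligand condition, and a bar at the mean of 3 libraries. Nnat and Ndn lie higher in all D2 libraries and Mest, Peg3, Igf2r and Plagl1 lie lower, whereas the D2 control library stands above the other D2 libraries for H19, Igf2 and Dlk1.

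The start regions of 3 of the most abundant members are shown because their levels differed most clearly between states and because germline methylation at imprinted promoters falls on CG dinucleotides. Each sequence, from RefSeq on GRCm38.p6, runs 5′ to 3′ on the gene's own strand from 250 bases before to 50 bases after an annotated start. Capitals mark CG dinucleotides in the Nnat and Mest sequences and the 8 letters GGGGCCCC in the Peg3 sequence.
Nnat, chr2:157559828-157560127, plus strand: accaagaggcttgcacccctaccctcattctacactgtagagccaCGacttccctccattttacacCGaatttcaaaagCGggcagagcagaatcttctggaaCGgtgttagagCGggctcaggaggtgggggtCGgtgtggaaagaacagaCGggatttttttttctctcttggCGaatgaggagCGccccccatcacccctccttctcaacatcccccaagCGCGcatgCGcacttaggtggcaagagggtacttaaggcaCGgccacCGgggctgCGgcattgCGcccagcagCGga
Mest, chr6:30737800-30738099, plus strand: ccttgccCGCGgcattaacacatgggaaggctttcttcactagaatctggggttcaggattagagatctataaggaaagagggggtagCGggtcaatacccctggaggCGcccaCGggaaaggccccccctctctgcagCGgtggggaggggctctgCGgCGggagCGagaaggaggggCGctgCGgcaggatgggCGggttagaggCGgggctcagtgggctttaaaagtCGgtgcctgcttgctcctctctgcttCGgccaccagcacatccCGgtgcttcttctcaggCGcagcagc
Peg3, chr7:6730370-6730669, minus strand: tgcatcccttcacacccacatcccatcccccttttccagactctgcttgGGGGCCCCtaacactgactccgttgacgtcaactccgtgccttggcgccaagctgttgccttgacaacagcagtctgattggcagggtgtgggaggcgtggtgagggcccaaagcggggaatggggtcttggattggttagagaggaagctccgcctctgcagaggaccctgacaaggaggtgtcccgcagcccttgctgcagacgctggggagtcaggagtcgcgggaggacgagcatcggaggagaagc
The windows of Nnat and Mest each held 17 CG dinucleotides, and that of Peg3 held 13, where the median over all 32851 windows of the table was 7. A second Mest start at chr6:30733256-30733555 had 8. RefSeq windows were matched for 9 of the 10 members, 15 windows in all, and not for H19. They held from 2 CG dinucleotides (an Igf2 window) to 45 (a Grb10 window). With GC above 50% and CG above 0.6 times the number expected from the C and G content, 7 of the 15 passed, beside 33.3% of all windows. The printed Nnat window passed (0.69), and those of Mest (0.59) and Peg3 (0.463) did not. Another Mest window at chr6:30737803-30738102, which largely overlaps the printed one, passed (0.605). The letters GGGGCCCC, a core bound by the protein PLAGL1, were in 1 of the 15 windows, that of Peg3, beginning 201 bases before the start, and in 1.08% of all windows. A core of the YY1 motif (GCCATNTT, 6.05% of all windows) and the TATA box (TATAAA, 13.6%) were in 0 of the 15 windows. All motifs were searched on both strands. A match describes the letters and is not a binding site, and these data hold no measure of methylation or binding.

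Nnat encodes neuronatin, a small membrane protein of the endoplasmic reticulum that is abundant in the developing brain, and it had the largest state difference of the members. Nnat (chr2:157560078-157562522, plus strand, mm10) had 1854, 2013 and 1958 CPM in the D2 libraries with naloxone, with DAMGO and without ligand, against 297, 281 and 291 CPM in the NSC libraries with naloxone, with DAMGO and without ligand. No library of one state came near those of the other. Its log2 fold change was 2.74 (SE 0.05, edgeR adjusted p = 6.04e-13), and its D2 to NSC ratio was 6.24 with naloxone, 7.15 with DAMGO and 6.73 without ligand. Nnat lies within an intron of Blcap on the opposite strand, and Blcap itself rose with a log2 fold change of 1.59 (SE 0.07, adjusted p = 7.32e-10). Blcap averaged 98.6 ± 2.45 CPM in D2 and 32.9 ± 2.53 CPM in NSC. Libraries of this kit carry no strand information, so reads of any stretch shared by both genes cannot be told apart. The expected counts of Nnat and Blcap were whole numbers in all 6 libraries, and how many reads were shared was not measured.

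Mest encodes a protein of the endoplasmic reticulum with an alpha/beta hydrolase fold and is named for its expression in the mesoderm of the mouse embryo. Mest (chr6:30723547-30748465, plus strand) had 175, 154 and 172 CPM in D2 with naloxone, with DAMGO and without ligand, against 688, 723 and 719 CPM in NSC with naloxone, with DAMGO and without ligand. The states did not overlap, and the log2 fold change of -2.09 (SE 0.06, adjusted p = 1.23e-11) was the largest fall among the members. Copg2, which encodes a subunit of the COPI vesicle coat and overlaps Mest on the opposite strand, rose instead, with 126 ± 10.04 CPM in D2 and 83.3 ± 3.54 CPM in NSC (log2 fold change 0.60, adjusted p = 3.65e-06). The expected counts of Mest were fractional in all 6 libraries, while the sum of Mest and Copg2 was whole to within 0.02 counts in 5 of them. Mest took 56.3%, 57.1% and 57.6% of that sum in D2 with naloxone, with DAMGO and without ligand, against 89.6%, 89.6% and 89.3% in NSC. In any library the exact 95% interval of this share lay between 54.4% and 59.4% in D2 and between 88.6% and 90.3% in NSC, which covers counting error only. The division of shared reads between the pair was made by the authors' counting and is uncertain. How many reads were shared, and the error of their division, were not measured.

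Among the nuclear regulators, Peg3 and Plagl1 fell and Ndn rose. Peg3 (chr7:6703892-6730431, minus strand) encodes a large zinc finger protein. It had 167, 160 and 136 CPM in D2 with naloxone, with DAMGO and without ligand, against 393, 362 and 391 CPM in NSC with naloxone, with DAMGO and without ligand. Its log2 fold change was -1.31 (SE 0.07, adjusted p = 2.89e-09), with a D2 to NSC ratio of 0.425 with naloxone, 0.442 with DAMGO and 0.346 without ligand. All D2 libraries lay at less than the lowest NSC library. Usp29, which shares a bidirectional start region with Peg3, averaged 1.74 ± 0.545 CPM in D2 and 1.72 ± 0.0367 CPM in NSC (log2 fold change 0.00, adjusted p = 0.990).

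Plagl1, also called Zac1, encodes a zinc finger transcription factor that binds promoters of several imprinted genes. Plagl1 (chr10:13060504-13131694, plus strand) had 10.04, 12.9 and 7.65 CPM in D2 with naloxone, with DAMGO and without ligand, against 16.2, 14.002 and 14.2 CPM in NSC with naloxone, with DAMGO and without ligand. Its groups did not overlap in CPM, though they did in TPM, where the D2 library with DAMGO had 7.52 and the NSC control library 6.79, and the log2 fold change was -0.56 (SE 0.15, adjusted p = 0.0046). The ratio of D2 to NSC was 0.620 with naloxone, 0.921 with DAMGO and 0.540 without ligand.

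Ndn encodes necdin, a protein of the MAGE family that restrains proliferation and is abundant in neurons. Ndn (chr7:62346569-62350262, plus strand) had 56.8, 62.6 and 61.6 CPM in D2 with naloxone, with DAMGO and without ligand, against 35.1, 33.3 and 34.8 CPM in NSC with naloxone, with DAMGO and without ligand. All D2 libraries were higher, with a log2 fold change of 0.81 (SE 0.07, adjusted p = 5.23e-07). The same chromosomal cluster did not move as a block. Snurf, Mkrn3 and Snrpn rose with log2 fold changes of 1.20, 0.88 and 0.79, whereas the noncoding Snhg14 and the gene Peg12 fell with log2 fold changes of -1.50 and -1.47. Snurf and Snrpn share transcripts, so the division of reads between them is uncertain.

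**Figure D2:**
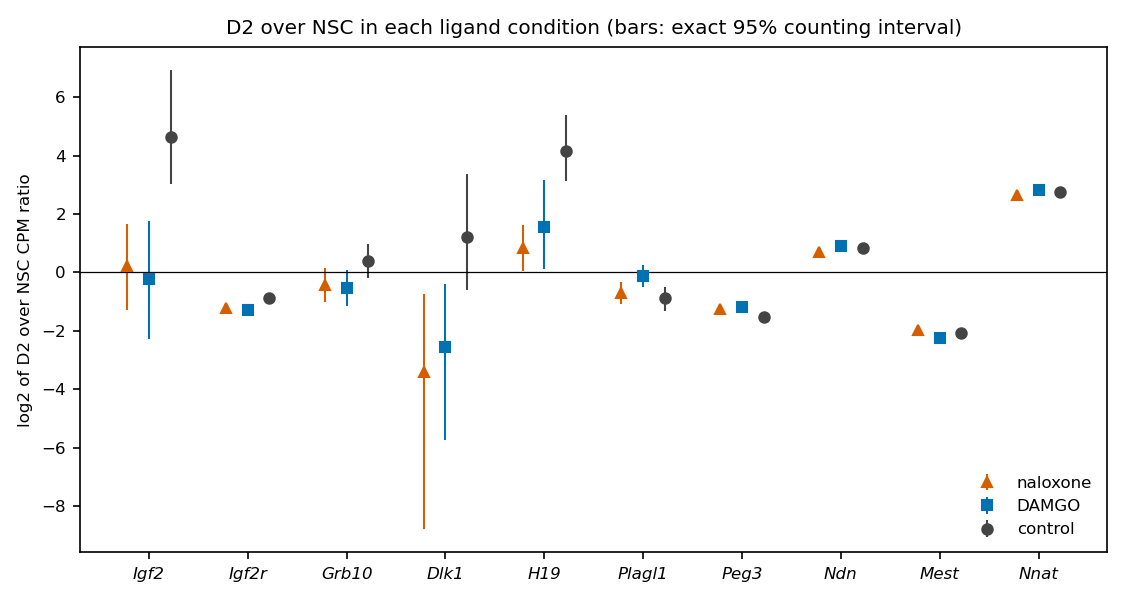
Log2 ratio of normalised CPM in the D2 library to the NSC library of the same ligand condition for each imprinted gene, with exact 95% intervals that cover counting error only. The 3 ratios lie close together for Nnat, Mest, Peg3, Igf2r and Ndn, whereas those of H19, Igf2 and Dlk1 are spread apart, with the control pair on the high side.

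Of the members in growth factor signalling, the receptor fell and the adaptor did not pass the test. Igf2r encodes the receptor that takes the growth factor IGF2 and mannose 6-phosphate proteins to lysosomes. Igf2r (chr17:12682406-12769664, minus strand) had 50.4, 47.0 and 58.0 CPM in D2 with naloxone, with DAMGO and without ligand, against 118, 114 and 107 CPM in NSC with naloxone, with DAMGO and without ligand. All D2 libraries were lower, with a log2 fold change of -1.13 (SE 0.08, adjusted p = 3.66e-08). The noncoding RNA Airn, which overlaps Igf2r on the opposite strand and in the mouse silences its paternal copy, fell as well, with 0.964 ± 0.310 CPM in D2 and 4.63 ± 0.170 CPM in NSC (log2 fold change -2.27, adjusted p = 2.13e-05).

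Grb10 encodes an adaptor that binds the insulin and IGF1 receptors and dampens their signal. Grb10 (chr11:11930508-12038683, minus strand) had 4.61, 4.41 and 5.69 CPM in D2 with naloxone, with DAMGO and without ligand, against 6.14, 6.40 and 4.34 CPM in NSC with naloxone, with DAMGO and without ligand. The states overlapped, and the log2 fold change was -0.18 (SE 0.21, adjusted p = 0.446). At 39 to 83 counts a library, a small difference was not detectable at this depth. Dlk1, which encodes a membrane protein with EGF-like repeats, was near the limit of detection. Dlk1 (chr12:109452823-109463336, plus strand) had 1, 2 and 9 counts in D2 with naloxone, with DAMGO and without ligand, against 17, 12 and 4 counts in NSC with naloxone, with DAMGO and without ligand. Summed over ligands these were 12 counts in D2 and 33 in NSC, a CPM ratio of 0.439 with an exact 95% interval of 0.206 to 0.872 that covers counting error only. The ratio was 2.34 (0.652 to 10.4) in the control pair, an interval that includes 1. The noncoding RNA Meg3 of the same cluster had 2, 5 and 12 counts in D2, in that order of ligands, against 15, 5 and 13 in NSC, and was not tested.

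H19 and Igf2 are neighbours on chromosome 7 that share enhancers, H19 being a noncoding RNA and host of the microRNA miR-675, and Igf2 a fetal growth factor. H19 (chr7:142575529-142578143, minus strand) had 31, 17 and 137 counts in D2 with naloxone, with DAMGO and without ligand, against 28, 6 and 8 counts in NSC with naloxone, with DAMGO and without ligand. As normalised levels these were 3.66, 1.92 and 13.4 CPM in D2, against 2.07, 0.662 and 0.756 CPM in NSC. The D2 control library was far above the rest, and the D2 library with DAMGO lay below the NSC library with naloxone. H19 passed the state test with a log2 fold change of 2.22 (SE 0.49, adjusted p = 0.00118). This value was 1.03 without the D2 control library (adjusted p = 0.0207), 1.02 without the NSC control library (0.00942), 3.36 without the D2 library with naloxone (0.000112) and 3.36 without the NSC library with naloxone (1.9e-06).

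Igf2 (chr7:142650766-142666816, minus strand) had 8, 5 and 71 counts in D2 with naloxone, with DAMGO and without ligand, against 11, 6 and 3 counts in NSC with naloxone, with DAMGO and without ligand. These counts were 0.945, 0.566 and 6.97 CPM in D2, against 0.814, 0.662 and 0.283 CPM in NSC. Apart from the D2 control library, the libraries of both states lay in the same range. The state log2 fold change of 1.92 (SE 0.69, adjusted p = 0.0229) depended on the control pair, since it was 0.04 without the D2 control library (adjusted p = 0.957) and 0.04 without the NSC control library (adjusted p = 0.948). It did not pass with DESeq2 (adjusted p = 0.117) or with limma on log2(TPM + 1) (adjusted p = 0.268). The D2 to NSC ratio of Igf2 was 1.16 (0.406 to 3.17) with naloxone, 0.855 (0.206 to 3.36) with DAMGO and 24.6 (8.08 to 122) in the control pair. For H19 it was 1.77 (1.03 to 3.06), 2.91 (1.09 to 9.01) and 17.8 (8.78 to 42.0) in the same order. In deposited TPM, which is scaled by transcript length, the direction with naloxone was the opposite for both genes. H19 had 3.83 TPM in D2 and 4.69 TPM in NSC, and Igf2 had 0.73 TPM in D2 and 1.45 TPM in NSC. With naloxone the weighted length of H19 was 2182 bases in D2 and 1028 in NSC. That of Igf2 was 2951 bases in D2 and 1286 in NSC. H19 made up 79.5% (exact binomial 95% interval 63.5 to 90.7) of the counts of this pair of genes in D2 with naloxone, 77.3% (54.6 to 92.2) with DAMGO and 65.9% (59.0 to 72.3) without ligand. In NSC it made up 71.8% (55.1 to 85.0) with naloxone, 6 of 12 counts with DAMGO and 72.7% (39.0 to 94.0) without ligand, so the shares were not distinguishable at this depth.

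Within each state, the fibrillar collagen genes Col1a1, Col1a2 and Col3a1 were highest in the same library as H19 and Igf2. These genes were chosen after their values were seen. Between states, H19, Igf2, Col1a1 and Col3a1 were lower in NSC with naloxone than in the D2 control, and Col1a2 was higher (4.22 against 2.45 CPM). H19 and Igf2 in NSC with naloxone (2.07 and 0.814 CPM) also lay below D2 with naloxone (3.66 and 0.945 CPM). Col1a1 had 7, 6 and 49 counts in D2 with naloxone, with DAMGO and without ligand, against 49, 5 and 10 counts in NSC with naloxone, with DAMGO and without ligand. Col3a1 had 3, 4 and 40 counts in D2, against 19, 0 and 1 in NSC, in the same order. Within D2 the control library was the highest and within NSC the naloxone library was the highest for H19, Igf2, Col1a1, Col1a2, Col3a1, Lum, Ogn and Dcn, of which Lum and Ogn had at most 3 counts in any library. Of the 12 fibroblast and pericyte markers listed, 5 had this pattern (Acta2 besides those named) and 7 did not, Pdgfrb being highest in D2 with naloxone and Myl9 in D2 with DAMGO. The share of all tested genes with this pattern was not counted, so these counts have no background beside them. Of these 12 markers 9 were tested, of which 4 rose, 2 fell and 3 did not pass, and their summed level was 59.1 to 72.2 CPM in D2 and 148 to 164 CPM in NSC. Fbln2 alone had 10.1 to 12.6 CPM in D2 and 134 to 141 CPM in NSC, and without it the others summed to 48.5 to 62.1 CPM in D2 and 13.3 to 22.6 CPM in NSC. The 9 meningeal and choroid plexus markers summed to 0.679 to 0.981 CPM in D2 and 0.772 to 1.18 CPM in NSC. The skeletal muscle markers summed to 1.06 to 1.47 CPM in D2 and 0.148 to 0.661 CPM in NSC, with Myog and Myf5 at 0 in all libraries. The endothelial markers summed to 3.19 to 4.22 CPM in D2 and 4.08 to 5.03 CPM in NSC, with Cldn5 at 0 throughout. The microglial markers summed to 1.37 to 2.38 CPM in D2 and 3.97 to 5.51 CPM in NSC, with Cx3cr1 at 0 throughout. The pluripotent cell markers summed to 2.15 to 4.25 CPM in D2 and 14.9 to 16.6 CPM in NSC, with Zfp42 and Dppa5a at 0 throughout. Without Esrrb they summed to 0.566 to 2.83 CPM in D2 and 0.110 to 0.296 CPM in NSC. Among them Pou5f1 had 19, 0 and 0 counts in D2 with naloxone, with DAMGO and without ligand. The part of such cells in the H19 and Igf2 values was not tested.

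**Figure D3:**
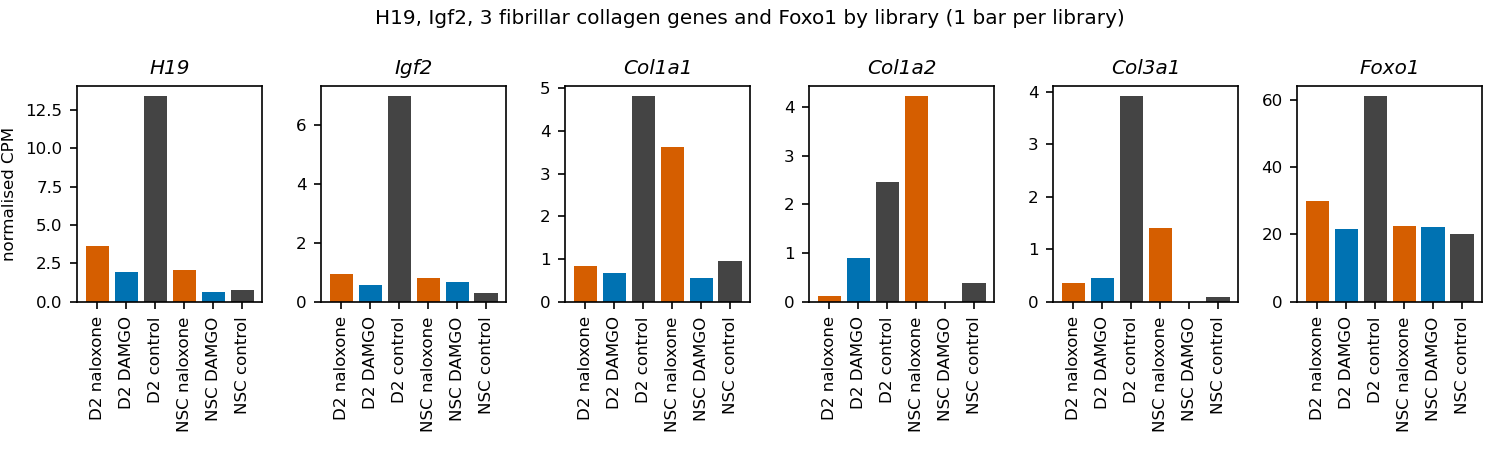
Normalised CPM of H19, Igf2, Col1a1, Col1a2, Col3a1 and Foxo1 in each library, D2 first and NSC second, each with naloxone, DAMGO and control from left to right. The D2 control bar is the tallest of the D2 bars in every panel, and the NSC naloxone bar is the tallest of the NSC bars. For Foxo1 the NSC bars are close, at 22.4, 22.2 and 20.2 CPM with naloxone, with DAMGO and in the control. The collagens were chosen after their values were seen, and Foxo1 as the nearest profile to Igf2. The shared shape therefore follows from the choice of genes.

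The ligand comparisons called no member. With naloxone, 0 of the 9 tested members passed in edgeR, and 0 had an unadjusted p under 0.05. With DAMGO, 0 of 9 passed and 2 had an unadjusted p under 0.05. In that edgeR model these were H19, with a log2 fold change of -2.23 (SE 0.60), and Igf2, with -2.24 (SE 0.83). For naloxone against DAMGO, 0 of 9 passed and 0 had an unadjusted p under 0.05. An unadjusted p under 0.05 was found for 2.22% of all tested genes with naloxone, 2.40% with DAMGO and 2.12% between both ligands. DESeq2 and limma also called 0 in each comparison. Among all tested genes 0.0151% were called with naloxone, 0.0151% with DAMGO and 0.0303% between both ligands. Without the NSC control library, the log2 fold changes of H19 and Igf2 were -1.78 and -2.96 for naloxone, and -2.96 and -3.45 for DAMGO. Without the D2 control library the naloxone log2 fold changes were 1.33 for H19 and 1.56 for Igf2, the opposite sign, and without the D2 library with naloxone they were 0.80 and 0.04. Without the NSC library with naloxone, the DAMGO log2 fold change of H19 was -2.29. Both ligands were set against the same control libraries, so their values are not independent.

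Within a state 1 library stands on each side, so there was no test. In D2, H19 with naloxone had 0.273 times the CPM of the control library (exact 95% interval 0.178 to 0.405) and with DAMGO 0.143 times (0.081 to 0.238). Igf2 in D2 with naloxone had 0.136 times the control level (0.056 to 0.282) and with DAMGO 0.081 times (0.026 to 0.199). These were the members past 1.5-fold in the lower direction in D2, 2 of 9 for each ligand, beside 2.55% of tested genes with naloxone and 2.47% with DAMGO. In NSC with naloxone H19 and Igf2 were past 1.5-fold higher, beside 2.19% of tested genes, and with DAMGO only Igf2 was, beside 2.04%. For Igf2 these rest on 11, 6 and 3 counts with naloxone, with DAMGO and without ligand, and its intervals included 1. H19 in NSC with naloxone had 2.74 times the control level (1.22 to 6.96), the opposite direction to D2, and in NSC with DAMGO its log2 ratio was -0.15. Plagl1 in D2 with DAMGO had 1.69 times the control level (1.25 to 2.28), where 4.28% of tested genes were past 1.5-fold higher. For Nnat, Mest, Peg3, Ndn, Igf2r and Grb10, the 4 ratios of a ligand library to its control lay between 0.775 and 1.47. The D2 control library was past 1.5-fold above both ligand libraries for 115 genes, 0.870% of those tested, H19 and Igf2 among them.

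Per unit of length, levels of the members can be set beside each other in TPM, the deposited unit that is scaled by transcript length. In D2 Nnat was first with 3823 ± 96.5 TPM, followed by Mest with 149 ± 12.5, Ndn with 83.0 ± 3.11, Peg3 with 39.5 ± 4.64 and Igf2r with 13.5 ± 2.52 TPM. The 5 lower members in D2 were H19, Plagl1, Igf2, Grb10 and Dlk1, from 7.17 ± 5.62 TPM for H19 to 0.640 ± 0.586 TPM for Dlk1. In NSC Mest was first with 639.8 ± 19.9 TPM and Nnat second with 573 ± 18.5, followed by Peg3 with 103, Ndn with 47.1 and Igf2r with 28.7 TPM. Below them in NSC came Plagl1 with 8.65, Grb10 with 3.48, Dlk1 with 2.20, H19 with 2.13 and Igf2 with 0.783 TPM. The libraries of neighbours in this order overlapped from Igf2r down to Grb10 in D2 and from Grb10 down to Igf2 in NSC, and all other neighbours were apart. Nnat alone was 92.3% to 93.2% of the summed TPM of the 10 members in D2 libraries and 39.6% to 41.8% in NSC libraries. The weighted transcript length in the tables did not overlap between states for Peg3 (8530 to 8593 bases in D2, 8071 to 8096 in NSC), Mest (2501 to 2526 in D2, 2461 to 2483 in NSC) and Nnat (1174 to 1181 in D2, 1159 to 1171 in NSC). The share of all genes whose lengths did not overlap was not counted, so these lengths have no background beside them. With 3 libraries against 3, an exact test cannot go below p = 0.10, and none was run.

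The genes nearest in profile were taken as the 3 with the smallest Euclidean distance of centred log2 CPM over the 6 libraries, among genes of at least 5 CPM. For Nnat they were Atp1b2, a sodium pump subunit of glia, at a distance of 0.0612, Cnp, a myelin enzyme, at 0.0755, and Adcy8 at 0.129. For Mest they were Tmem97 at 0.0766, Fam83d and Ptar1. The nearest to Peg3 was Bbx at 0.0797, to Ndn Zfp629 at 0.0304, to Igf2r Nkain1 at 0.115, to Plagl1 Slc25a28 at 0.134 and to Grb10 Clec2l at 0.214. H19 and Igf2 had no close neighbour, with Alkbh7 at 1.81 and Foxo1 at 1.73 being the nearest. Foxo1, which encodes a transcription factor held out of the nucleus by insulin signalling, had 252, 192 and 622 counts in D2 with naloxone, with DAMGO and without ligand, against 303, 201 and 214 in NSC.

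Other imprinted genes also moved in both directions. Of 53 further genes listed, 50 were matched and 30 had enough counts, of which 11 rose, 15 fell and 4 did not pass. Over all tested genes 40.0% rose, 39.8% fell and 79.8% were called in either direction. The median log2 fold change of the 30 was -0.25, beside 0.00 over all tested genes. Among those listed as expressed from the maternal copy 5 of 12 rose and 5 fell. For those listed as expressed from the paternal copy, 6 of 18 rose and 10 fell. These listings are background, since which copy was transcribed in these cells was not measured. The largest rise was of Cdkn1c, which encodes a cyclin-dependent kinase inhibitor, with 13.8 ± 0.759 CPM in D2 and 3.12 ± 0.120 CPM in NSC (log2 fold change 2.14, adjusted p = 6.43e-08). Blcap, Snurf, Osbpl5 (0.94) and Mkrn3 had the next largest rises. The largest fall was of Peg10, a gene derived from a retrotransposon, with 50.1 ± 1.52 CPM in D2 and 527.9 ± 20.9 CPM in NSC (log2 fold change -3.40, adjusted p = 3.87e-13). Ube3a, which encodes a ubiquitin ligase, had 28.6 ± 5.86 CPM in D2 and 139.7 ± 2.58 CPM in NSC, a log2 fold change of -2.30, and Airn, Zdbf2 (-2.23) and Zim1 (-2.13) followed. No gene of these lists was called for naloxone or DAMGO in edgeR. At an unadjusted p under 0.05 there were 0 for naloxone and 2 for DAMGO, Snurf with a log2 fold change of -0.51 and Nespas with -1.19. Over all tested genes 2.22% had such a p for naloxone and 2.40% for DAMGO.

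**Figure D4:**
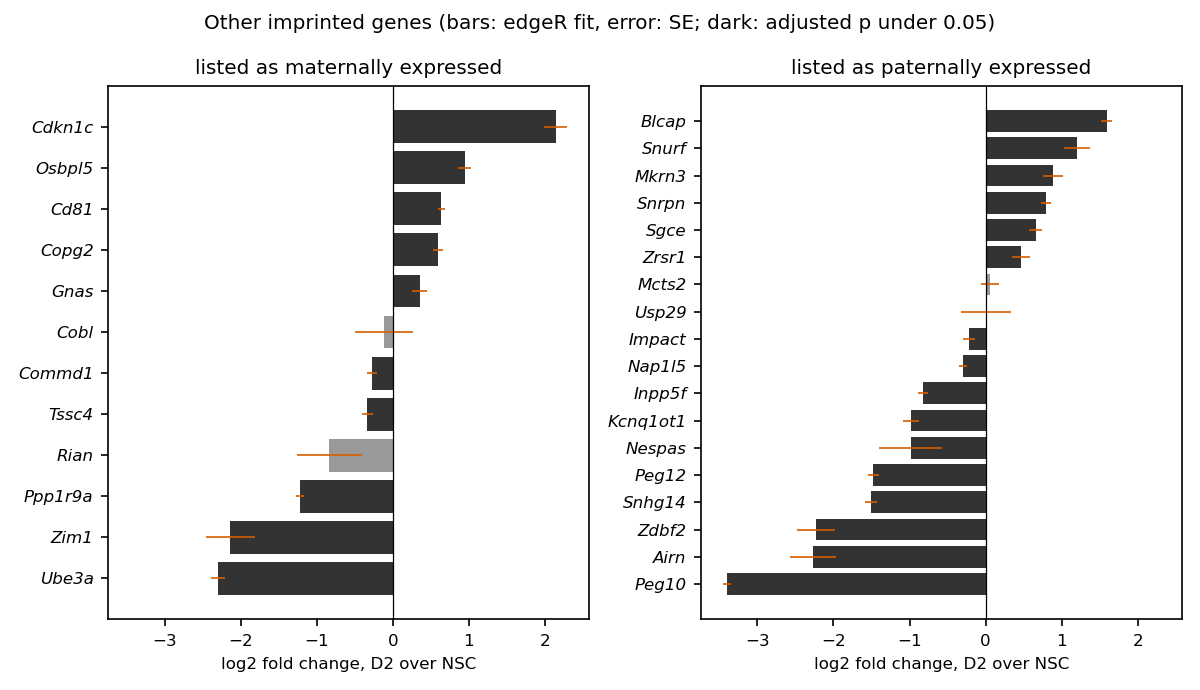
State log2 fold change (D2 over NSC, bars with SE) of the other tested imprinted genes. Panels hold genes listed as expressed from the maternal and from the paternal copy, with genes past an adjusted p of 0.05 in dark. Cdkn1c at 2.14 and Peg10 at -3.40 mark the ends of the range.

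Among genes listed for setting or keeping imprints, more fell than rose. Of 17 tested genes of this list 13 fell, 2 rose and 2 did not pass, with a median log2 fold change of -0.52, beside 39.8% that fell, 40.0% that rose and a median of 0.00 over all tested genes. The largest falls were of Uhrf1 (-3.53), which brings the maintenance methyltransferase to replicated DNA, Dnmt1 (-2.05), which is that methyltransferase, Smchd1 (-2.01), Arid4a (-2.00) and Arid4b (-1.97). Dnmt1 averaged 148 ± 5.18 CPM in D2 and 615 ± 14.4 CPM in NSC. Dnmt3a, a de novo methyltransferase, and Ehmt2, a histone methyltransferase, rose with log2 fold changes of 0.40 and 0.38. Zfp57, which binds methylated imprinting control regions, averaged 21.1 ± 2.13 CPM in D2 and 19.1 ± 1.65 CPM in NSC (log2 fold change 0.14, adjusted p = 0.199). Uhrf1 and Dnmt1 are, as background, expressed mainly in S phase, and all 10 cell cycle genes listed fell, with a median log2 fold change of -3.32. The part of proliferation in the fall of this list was not tested.

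In the IGF system, which carries the signal of Igf2, 10 of 15 tested genes fell, 2 rose and 3 did not pass, with a median log2 fold change of -0.55. Over all tested genes 39.8% fell and 40.0% rose, with a median of 0.00, and 79.8% were called in either direction. This list includes Igf2r and Grb10. The IGF binding proteins Igfbp4 (-2.99) and Igfbp3 (-2.97) had the largest falls, followed by the adaptor Grb14 (-2.14), by Igf2r and by the adaptor Irs1 (-1.08). Igfbp3 averaged 105 ± 4.30 CPM in D2 and 828 ± 9.33 CPM in NSC. Igfbp5, another binding protein, rose with 141 ± 12.6 CPM in D2 and 33.9 ± 5.71 CPM in NSC (log2 fold change 2.07, adjusted p = 2.56e-10), and Htra1, a secreted protease, rose with a log2 fold change of 1.39.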

How the data were processed

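Total RNA was extracted with Trizol and sequenced from Illumina TruSeq libraries, per the labels' protocols. Per the submitters' processing notes, Bowtie and RSEM were used on build mm10, while versions, annotation and filters were not given in the sources read. For each gene the authors deposited an expected count, which RSEM estimates by dividing reads that map to several genes, a TPM value, scaled by transcript length and to one total per library, and a weighted transcript length. The FPKM column was not used. Of 29267 identifiers, 28756 matched GENCODE M21 (mm10), the source of symbols, coordinates and overlaps.

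Expected counts were rounded, which moved a total by at most 46.1 counts. A gene at 0 counts may have had up to 3, or 0.221 to 0.356 CPM. The 13216 genes averaging 10 or more counts were fitted with edgeR 4.0.16 (R 4.3.3, TMM, glmQLFit and glmQLFTest) on state and ligand, with 2 residual degrees of freedom, with Benjamini-Hochberg adjusted p-values (threshold 0.05). The SE is the log2 fold change divided by the square root of F. Within a state no test was made: ratios are of TMM-normalised CPM, log2 ratios add a prior count of 2, and the exact binomial 95% intervals (scipy 1.17.1) cover counting error only. Alternatives were other size factors, no count filter, DESeq2 1.42.0, limma 3.58.1 on log2(TPM + 1), state alone, and leaving out libraries. The scripts were tested on simulated data.

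Named genes were all 10 members, up to 5 largest rises and falls of each other list, the 3 nearest profiles per member, up to 3 markers per cell type list, and genes that overlap or neighbour a member. Other list members given as examples, and the collagens, Dcn, Lum and Ogn beside H19, were chosen after their values were seen. The members and lists were chosen with earlier results of these data known.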

Additional observations from a re-analysis of the deposited data

Results flagged for a closer look

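The naloxone to control ratio of H19 went in opposite directions in the states, with a log2 ratio of -1.82 in D2 (31 counts with naloxone, 137 in the control) and 1.25 in NSC (28 counts with naloxone, 8 in the control). Dlk1 did the same at lower counts, with a log2 ratio of -1.77 in D2 (1 count with naloxone, 9 in the control) and 1.34 in NSC (17 counts with naloxone, 4 in the control). Each value compares 1 library with 1 other, and the difference between the states was not tested.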

How the results depend on the processing

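The number of members that rose was 3 to 4 and that fell was 4 when each library was left out in turn, and the other imprinted genes gave 10 to 11 and 13 to 14. The number of members called was 0 to 2 for naloxone, 0 to 2 for DAMGO and 0 for naloxone against DAMGO over the same settings, and 2 for DAMGO with no filter on low counts (H19 and Igf2, edgeR adjusted p = 1.56e-08 and 0.0104). H19 was also called for DAMGO without the NSC library with naloxone (adjusted p = 0.0274). The state difference of Igf2 was 0.04 without either or both control libraries, 1.42 with DESeq2 and 0.81 with limma, all short of the threshold. H19 kept its direction and its call over 14 settings (1.02 to 3.36), as did the other 6 called members. With deposited TPM in place of CPM, the log2 ratio of H19 in D2 with DAMGO was -1.54, that of Igf2r in NSC with DAMGO 0.22 and that of Plagl1 in NSC with naloxone 0.59. TPM is scaled by the weighted transcript length, which for H19 was 2201 bases in the D2 control and 1099 in D2 with DAMGO. For Igf2r it was 8887 bases in the NSC control and 8068 in NSC with DAMGO. For Plagl1 it was 4579 bases in the NSC control and 3348 in NSC with naloxone. Why the lengths differed was not tested. Plagl1 in NSC with DAMGO had a log2 ratio of -0.02 in CPM and 0.28 in TPM, and the H19 and Igf2 ratios of D2 to NSC with naloxone also changed sign, from 0.77 and 0.18 in CPM to -0.24 and -0.50 in TPM. Among ratios of naloxone to DAMGO, those of H19 in D2 (0.86 and -0.06), Grb10 in D2 (0.06 and -0.02) and Igf2r in NSC (0.05 and -0.09) did so too. Leaving out a library leaves 1 library for its ligand, which the fit assumes to vary like the others. No paired analysis was possible because the labels give no replicate numbers and each group has 1 library, but the additive fit already compares the states within ligand conditions, and state alone is its alternative. Depth limits Dlk1, Igf2 and H19, which had fewer than 20 counts in several libraries.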
